A study of Mus musculus with 75 samples.

Results

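The Emx and Gad2 lines, which mark the main excitatory and inhibitory cell populations of the cortex, were compared across every housing condition of the study. All 15 Emx libraries were set against all 15 Gad2 libraries, matched by condition and replicate number, so 30 of the 75 samples of the series were used. Both lines were C57BL/6 mice, 8 weeks old, heterozygous for a Cre allele (Emx-Cre or Gad2-Cre) and heterozygous for the Rpl22-HA allele, so the same tagged ribosomal protein was present in both. Each line was studied under 5 conditions, namely darkness alone, darkness ended by light exposure for 1 h, 3 h or 7.5 h, and standard housing. Visual cortex from 3 mice was combined for each library, and each condition had 3 replicates. The study asked how visual experience changes gene expression in classes of cortical neurons.

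In the RiboTag method, Cre switches on a ribosomal protein that carries an HA epitope, and ribosome-bound RNA of the Cre cells is then immunopurified from whole tissue. Emx1 is a homeobox gene of the dorsal forebrain progenitors that give rise to cortical excitatory neurons and also to cortical astrocytes and oligodendrocytes, whereas Gad2 encodes a synthase of GABA and is used by inhibitory neurons of all classes. Excitatory neurons load vesicles with glutamate through Slc17a7. Inhibitory neurons make GABA with Gad1 and Gad2 and load it through Slc32a1.

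Levels are normalized reads, that is, gene read counts divided by 1 factor per library. Folds are 2 to the power of the fitted difference of mean log2(normalized reads + 1), which understates changes of low genes. Spreads are SD over libraries, and an SD over 15 libraries of a line also spans its 5 conditions. In units of 1000000 gene reads, depth spanned 10.3 to 47.0 in Emx libraries and 9.60 to 52.3 in Gad2 libraries (median of all 30 24.4). Depth tended to be lower at 7.5 h and in standard housing than in dark housing. The median was 17.0 at 7.5 h against 32.3 in the dark for Emx, and the Gad2 libraries spanned 11.6 to 24.8 at 7.5 h against 23.4 to 52.3 in the dark. In standard housing the Emx median was 16.3, and the Gad2 libraries spanned 9.60 to 15.6. Repeat libraries of a group correlated at 0.962 to 0.983 over genes on the log2 scale and libraries of different lines at 0.846 to 0.881. The leading principal component held 69.8% of the variance and separated the lines. In the second, with 7.95% of the variance, the replicate number held 99.1%, so libraries of 1 number stood together in both lines. The numbers were therefore also used as a block. Unless stated, the SE and adjusted p of line differences come from the fit without it, which does not match libraries by number.

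The genes behind the labels followed them in every library. Slc17a7 spanned 16872 to 29714 (median 23790) normalized reads in the 15 Emx libraries, against 719 to 1411 (median 1148) in the 15 Gad2 libraries. The lines did not overlap, and the mean in Gad2 was 4.70% of that in Emx (log2 difference 4.41, SE 0.0999, adjusted p = 9.80e-23, limma). Gad2 itself spanned 218 to 829.8 (median 365) in Emx libraries, against 39661 to 53703 (median 45261) in Gad2 libraries, and was lower in Emx in 15 of 15 matched pairs (log2 -6.83, SE 0.134, adjusted p = 5.44e-24). Its mean in Emx was 0.932% of its mean in Gad2. Emx1 stood at 266 ± 76.5 in Emx and 19.2 ± 9.95 in Gad2 (log2 3.83, SE 0.149, adjusted p = 7.15e-18), so the transcript of the gene that names the line remained detectable in the Gad2 line at 7.21% of the Emx mean. In bulk libraries such as these, fewer cells of a type and less RNA per cell cannot be told apart.

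**Figure D1:**
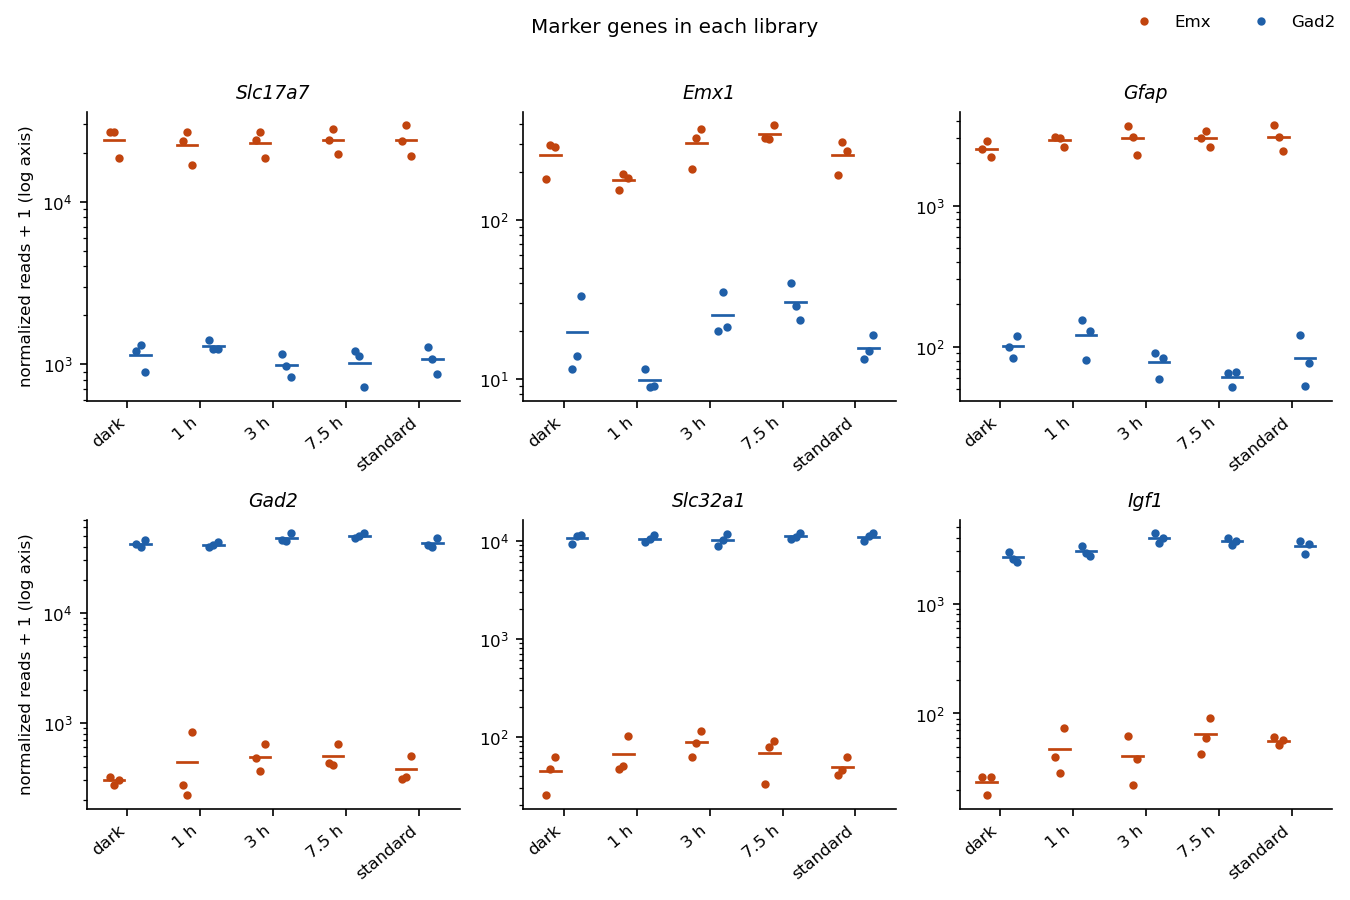
Normalized reads plus 1 (log axis) of 6 genes in each of the 30 libraries by housing condition, with Emx left of Gad2 in each condition and a bar at each group mean. Slc17a7, Emx1 and the astrocyte gene Gfap were higher in every Emx library than in any Gad2 library, and Gad2, Slc32a1 and Igf1 lower.

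Over the mean of the 5 conditions, 3624 of 14240 genes (25.4%) passed an adjusted p under 0.05 and an absolute log2 difference of at least 1 (limma on log2(normalized reads + 1), Benjamini-Hochberg). Of these, 2156 genes (15.1%) were higher in Emx and 1468 (10.3%) lower. Moderate differences were more often in favour of Emx and extreme ones in favour of Gad2. A log2 difference of at least 3 was reached by 578 genes higher in Emx and 314 lower, and one of at least 5 by 12 higher and 78 lower. Without a limit on size, 4927 genes were higher in Emx and 4920 lower, and the median over all genes was -0.01. For 4595 genes (32.3%) the 95% interval of the line difference lay inside -0.5 to 0.5.

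Levels of all 15 Emx libraries lay above those of all 15 Gad2 libraries for 1942 genes (13.6%) and below them for 1646 (11.6%). In all 15 matched pairs 3494 genes (24.5%) were higher in Emx and 3508 (24.6%) lower. Within single conditions the call was made for 3332 genes in dark housing (23.4%; 14% higher in Emx and 9.38% lower), 3394 after 1 h of light (23.8%; 14.4% and 9.48%), 3535 after 3 h (24.8%; 14.8% and 10.1%), 3592 after 7.5 h (25.2%; 14.5% and 10.7%) and 3468 in standard housing (24.4%; 14.6% and 9.74%). A call for Emx was made in all 5 conditions for 1580 genes and a call for Gad2 for 973.

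**Figure D2:**
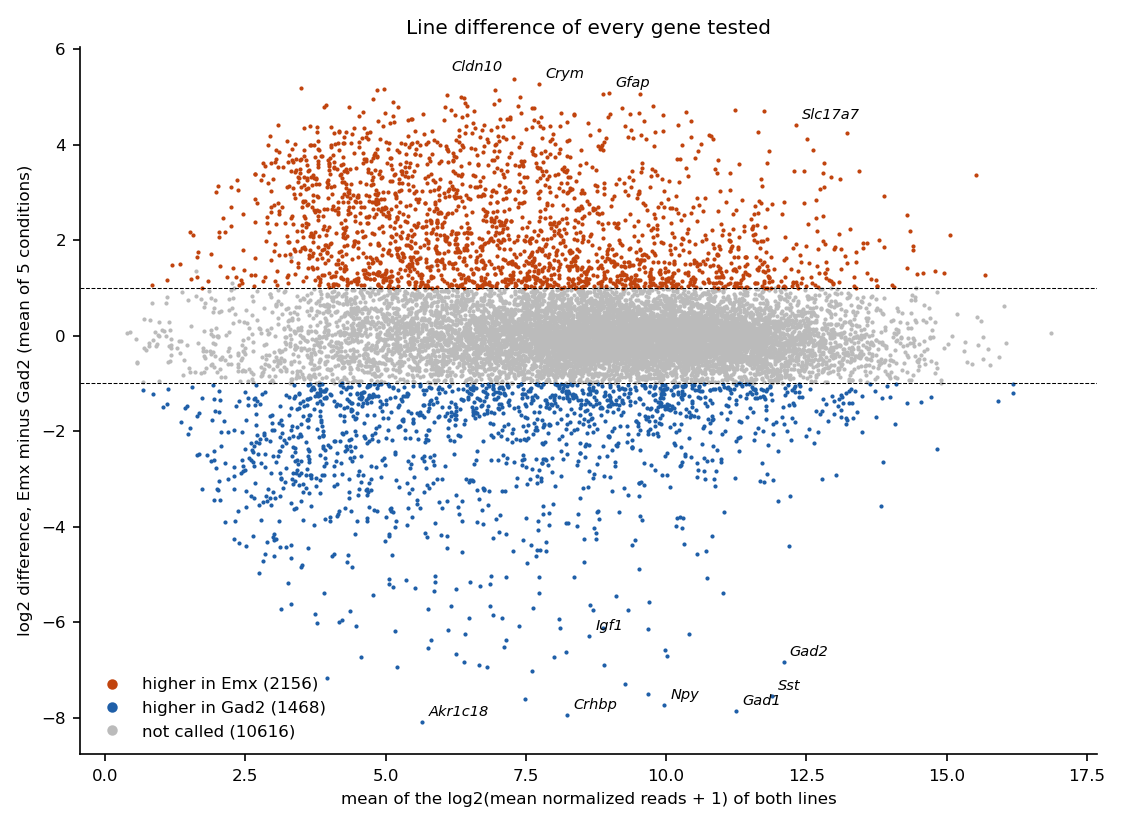
Log2 difference of Emx minus Gad2 (mean of the 5 conditions) of 14240 genes against the average log2 level of both lines. The 2156 genes called higher in Emx lie above the upper dashed line at 1 and reach 5.38 (Cldn10), while the 1468 called higher in Gad2 lie below -1 and reach -8.09 (Akr1c18).

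Genes known from astrocytes were among those with the greatest excess in Emx. Among called genes with a mean of at least 100, Cldn10, a tight junction protein, led with 963 ± 374 in Emx and 24.2 ± 11.6 in Gad2 (41.5-fold higher, log2 5.38, SE 0.265). Gfap, the intermediate filament of astrocytes, stood at 2896 ± 463 in Emx and 87.9 ± 30.4 in Gad2 (33.9-fold higher). Mlc1, a membrane protein of astrocyte endfeet, stood at 2672 ± 264 in Emx and 81.4 ± 25.9 in Gad2 (33.6-fold higher), and Sdc4, a heparan sulphate proteoglycan, at 4194 ± 685 in Emx and 129 ± 42.8 in Gad2 (33.4-fold higher). Crym, a thyroid hormone binding protein known from cortical excitatory neurons, was 38.5-fold higher in Emx at 1318 ± 311, against 33.7 ± 10.5 in Gad2. The other 3 of the leading 8 were Mgst1, a glutathione transferase (log2 5.17), Endou, an endoribonuclease (log2 5.15), and Dkkl1 (log2 5.14).

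The genes furthest below Gad2 were a steroid enzyme, a peptide-binding protein, peptide precursors, genes of GABA synthesis and loading and a homeobox factor. Akr1c18, a hydroxysteroid dehydrogenase, spanned 0 to 12.9 (median 0.914) in Emx libraries and 488 to 848 (median 691) in Gad2 libraries (log2 -8.09, SE 0.314). Crhbp, which binds corticotropin-releasing hormone, stood at 19.8 ± 12.7 in Emx and 4359 ± 1271 in Gad2 (248-fold lower in Emx). Npy, the precursor of neuropeptide Y, spanned 16.2 to 176 (median 60.7) in Emx libraries and 6925 to 22243 (median 12581) in Gad2 libraries. In all 3 genes every Emx library lay below every Gad2 library. The remaining members of the leading 8 were Gad1, Pnoc, the precursor of nociceptin, Sst, the precursor of somatostatin, Slc32a1 and Lhx6, a LIM homeobox factor of interneurons from the medial ganglionic eminence, with log2 differences of -7.86, -7.62, -7.56, -7.51 and -7.30. Genes named as called between lines had an adjusted p of at most 0.00387.

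Lists of cell type markers separated almost completely. Of the excitatory neuron markers 13 of 13 were called higher in Emx, as were 15.1% of all genes (median log2 difference 4.24, against -0.01 over all genes), led by Tbr1, a T-box factor of early-born cortical neurons, with 6627 ± 935 in Emx and 258 ± 52.6 in Gad2, Slc17a6, a second vesicular glutamate transporter, with 951 ± 131 in Emx and 41.1 ± 9.03 in Gad2, and Neurod6, a bHLH factor of postmitotic excitatory neurons, with 3611 ± 811 in Emx and 165 ± 62.3 in Gad2. Of the inhibitory neuron markers 10 of 10 were called lower in Emx, as were 10.3% of all genes (median -6.54), led by Gad1, Slc32a1 and Dlx5, a distal-less homeobox factor of interneurons. Gad1 stood at 163 ± 59.7 in Emx and 36089 ± 3953 in Gad2, and Slc32a1 at 62.1 ± 25.9 in Emx and 10629 ± 1013 in Gad2. Summed over the list, inhibitory markers had a median of 5153 in Emx libraries against 164419 in Gad2 libraries, so the lower line held 3.13% of the higher. The excitatory sum had a median of 194991 in Emx libraries against 21662 in Gad2 libraries, with 11.1% left in the lower line.

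All 3 classes of inhibitory neuron were present in the Gad2 line. The share of all genes called lower in Emx was 10.3%. PV neuron markers were called lower in Emx for 6 of 6 genes, with Pvalb, the calcium buffer parvalbumin, at 105 ± 67.6 in Emx and 10221 ± 4050 in Gad2, Cox6a2, a subunit of cytochrome c oxidase, at 20.3 ± 9.73 in Emx and 1306 ± 311 in Gad2, and Tac1, the precursor of substance P, at 56.7 ± 25.3 in Emx and 2782 ± 1015 in Gad2. The summed PV markers spanned 3988 to 5075 in Emx libraries and 57371 to 69055 in Gad2 libraries. SST neuron markers were called lower in Emx for 7 of 7 genes. Sst spanned 167 to 429 (median 271) in Emx libraries and 42824 to 70226 (median 47809) in Gad2 libraries, and Hpse, a heparanase, stood at 7.05 ± 5.40 in Emx and 211 ± 48.1 in Gad2. VIP neuron markers were also called lower for 7 of 7 genes. Tac2, the precursor of neurokinin B, stood at 30.5 ± 16.0 in Emx and 2807 ± 437 in Gad2, Vip, the precursor of vasoactive intestinal peptide, at 133 ± 154 in Emx and 7512 ± 2086 in Gad2, and Htr3a, a serotonin-gated channel, at 14.4 ± 8.22 in Emx and 1245 ± 196 in Gad2.

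Glial RNA was concentrated in the Emx libraries. The share of all genes called higher in Emx was 15.1%. Astrocyte markers were called higher in Emx for 12 of 12 genes (median log2 4.06), and their sum spanned 205525 to 266654 (median 228000) in Emx libraries against 18876 to 72106 (median 21178) in Gad2 libraries. The highest Gad2 sum came from the third library of 1 h of light, in which the glutamate transporter gene Slc1a2 reached 61539, against 16434 in the next library; the next highest sum was 25091. Gja1, the gap junction protein connexin 43, stood at 2439 ± 353 in Emx and 102 ± 21.6 in Gad2, and Aldh1l1, a folate enzyme used to mark astrocytes, at 879.6 ± 74.0 in Emx and 42.5 ± 10.5 in Gad2. Oligodendrocyte markers were called higher for 10 of 10 genes, with sums of 62550 to 87211 in Emx libraries and 5168 to 7195 in Gad2 libraries. Mog, a myelin surface glycoprotein, stood at 1058 ± 162 in Emx and 44.2 ± 12.5 in Gad2, Opalin, a myelin membrane protein, at 503 ± 213 in Emx and 26.1 ± 16.2 in Gad2, and Cldn11, a myelin tight junction protein, at 1987 ± 460.3 in Emx and 99.0 ± 22.5 in Gad2. Precursor markers were called higher for 6 of 6 genes, among them Olig1 (17.7-fold higher), Olig2 (16.5-fold higher) and Sox10 (13.9-fold higher), transcription factors of the oligodendrocyte lineage. No marker of these lists was at 0 in all libraries of either line. The part of glial RNA in the line difference of single genes was not tested.

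Microglial RNA was on the other side. Of the microglia markers 11 of 12 were called lower in Emx (median log2 -3.25), as were 10.3% of all genes. The summed microglia markers spanned 442 to 1330 (median 681) in Emx libraries and 1676 to 6786 (median 4470) in Gad2 libraries. Csf1r, the receptor for colony stimulating factor 1, spanned 12.6 to 109 (median 26.7) in Emx libraries and 175 to 1156 (median 657) in Gad2 libraries. C1qa, a chain of complement C1q, stood at 11.7 ± 7.58 in Emx and 223 ± 106 in Gad2, and Itgam, an integrin of myeloid cells, at 11.6 ± 7.32 in Emx and 211 ± 84.1 in Gad2. Every Emx library lay below every Gad2 library in the summed markers. The Gad2 sums were uneven over the conditions, with group medians of 5797 in the dark, 4134 at 1 h, 3685 at 3 h, 6302 at 7.5 h and 5643 in standard housing, against 648 to 715 in Emx. Summed endothelial and pericyte markers had medians of 365 in Emx and 294 in Gad2. Of these 11 genes 2 were called higher in Emx and none lower, against 15.1% and 10.3% of all genes. The median log2 difference was -0.32, and 9 of the 11 were not called. The called genes were Pdgfrb, a receptor of pericytes, and Esam, an endothelial adhesion molecule. Pdgfrb stood at 107 ± 22.1 in Emx and 22.2 ± 8.45 in Gad2, and Esam at 45.4 ± 14.4 in Emx and 19.2 ± 9.55 in Gad2.

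Transcription factors and other identity genes of neuron subtypes followed the lines. Of 20 cortical layer genes, 13 were called higher in Emx and 1 lower (median log2 1.99), against 15.1% and 10.3% of all genes. Fezf2, a zinc finger factor that specifies subcerebral projection neurons, stood at 2515 ± 406 in Emx and 103 ± 37.1 in Gad2 (25.0-fold higher), and Rprm, a gene of deep layers that responds to p53, at 1096 ± 421 in Emx and 56.9 ± 23.0 in Gad2 (18.8-fold higher). The exception was Cplx3, a complexin marking subplate neurons, at 711 ± 89.5 in Emx and 1441 ± 135 in Gad2 (2.03-fold lower). Cux1 and Cux2, factors of upper layers, did not pass the size limit (log2 0.16 and 0.17), nor did Bcl11b, a factor of deep projection neurons that interneurons also carry (log2 -0.50). Of 21 interneuron transcription factors, 19 were called lower in Emx and none higher (median -5.27), against 10.3% and 15.1% of all genes. Lhx6 spanned 12.8 to 76.6 (median 48.7) in Emx libraries and 5145 to 10552 (median 7367) in Gad2 libraries. Dlx5 stood at 17.3 ± 9.44 in Emx and 2104 ± 372 in Gad2, and Sp9, a zinc finger factor of interneuron precursors, at 10.1 ± 6.48 in Emx and 1120.4 ± 196 in Gad2. Nr2f1 and Nr2e1, nuclear receptors also used by cortical progenitors, were not called (log2 0.67 and 0.20).

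In GABA synthesis and transport 6 of 8 genes were called lower in Emx and 1 higher (median log2 -2.60). Besides the synthases and Slc32a1, those lower included the GABA-degrading enzymes Abat (log2 -1.64) and Aldh5a1 (log2 -1.45). Slc6a11, a GABA transporter of astrocytes, was the member higher in Emx, at 3432 ± 646 in Emx and 794 ± 162 in Gad2 (4.33-fold higher). Among 9 genes of glutamate synthesis and transport 3 were called higher in Emx and 2 lower (median -0.41), against 15.1% and 10.3% of all genes. Glud1, glutamate dehydrogenase, stood at 7491 ± 797 in Emx and 3557 ± 217 in Gad2. Slc17a8, a vesicular glutamate transporter found in a subset of interneurons, stood at 76.5 ± 27.6 in Emx and 270.2 ± 57.9 in Gad2 (3.58-fold lower in Emx), and Slc38a1, a glutamine transporter, at 6227 ± 734 in Emx and 18862 ± 1481 in Gad2 (3.04-fold lower).

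Ionotropic glutamate receptors and their partners were mixed (median log2 -0.14). Of 25 genes, 4 were called higher in Emx and 9 lower, against 15.1% and 10.3% of all genes. Kainate receptor subunit Grik1 stood at 124 ± 22.1 in Emx and 1572 ± 211 in Gad2 (12.7-fold lower in Emx), NMDA receptor subunit Grin3a at 629 ± 62.2 in Emx and 5556 ± 579.6 in Gad2 (8.81-fold lower), and Cacng5, an auxiliary subunit of AMPA receptors, at 128 ± 35.4 in Emx and 696 ± 69.3 in Gad2 (5.55-fold lower). On the other side, NMDA receptor subunit Grin2c stood at 312 ± 60.2 in Emx and 33.0 ± 10.3 in Gad2 (9.42-fold higher), and the AMPA receptor partners Cnih3 and Cacng3 were 3.24-fold higher and 2.64-fold higher. The AMPA receptor subunits themselves were divided. Gria2, the subunit that limits calcium entry, was called higher in Emx (log2 1.05), while Gria1 and Gria4 were called lower (log2 -1.55 and -1.52). The obligatory NMDA receptor subunit Grin1 was not called (log2 -0.39).

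Of 7 metabotropic glutamate receptors, 3 were called higher in Emx and 1 lower (median log2 0.86), against 15.1% and 10.3% of all genes. Grm2 and Grm3, presynaptic and glial receptors that lower cyclic AMP, stood at 1413 ± 179 in Emx and 129 ± 31.6 in Gad2 and at 4016 ± 829.6 in Emx and 593 ± 105 in Gad2, and Grm8 was 3.13-fold higher. GABA receptor subunits were called higher in Emx for 4 of 14 genes and lower for 2 (median -0.14). Gabrg1 stood at 415 ± 61.7 in Emx and 117 ± 17.8 in Gad2, Gabra2 at 882 ± 114 in Emx and 300.2 ± 60.2 in Gad2 and Gabrb1 at 728 ± 122 in Emx and 307 ± 80.6 in Gad2. Gabrg3 was lower in Emx, at 314 ± 75.3 in Emx and 1297 ± 244 in Gad2. Both metabotropic subunits, Gabbr1 and Gabbr2, were not called (log2 0.09 and -0.61). Grin2c, Grm3 and Gabrg1 are also known from astrocytes, whose summed markers had a median of 228000 in Emx against 21178 in Gad2.

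At the synapse, postsynaptic scaffolds were called higher in Emx for 5 of 17 genes and lower for none (median log2 0.49), against 15.1% higher and 10.3% lower of all genes. Homer1, which links group I metabotropic receptors to the scaffold, spanned 3421 to 18372 (median 9926) in Emx libraries and 1688 to 4289.6 (median 2866) in Gad2 libraries, with overlap between the lines. Dlg1, a membrane-associated guanylate kinase, stood at 5744 ± 1515 in Emx and 1859.7 ± 205 in Gad2, and Shank2 at 2595 ± 663 in Emx and 1129.8 ± 257 in Gad2. Gphn, gephyrin of inhibitory synapses, differed by log2 0.02. Synaptic organizers were called higher for 9 of 28 genes and lower for 5 (median 0.10). Secreted organizers of the C1q family led in Emx, with C1ql2 at 167 ± 67.0 in Emx and 10.4 ± 5.27 in Gad2 and Cbln1, cerebellin 1, at 422 ± 106 in Emx and 26.4 ± 8.52 in Gad2. Neurexophilins were split, with Nxph4 higher in Emx (log2 3.91), and Nxph1, at 289.8 ± 65.5 in Emx and 9803 ± 1973 in Gad2, and Nxph2 lower (log2 -5.08 and -4.17). Elfn1, a postsynaptic protein of SST neurons that sets presynaptic release, stood at 305 ± 50.6 in Emx and 7252 ± 890.1 in Gad2 (23.9-fold lower in Emx).

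Release machinery differed by paralogue. It was called higher in Emx for 3 of 27 genes and lower for 9 (median log2 -0.31), against 15.1% and 10.3% of all genes. Sv2b, a synaptic vesicle glycoprotein, stood at 24399 ± 4909 in Emx and 1411 ± 274 in Gad2 (17.3-fold higher), while its paralogues Sv2a and Sv2c were called lower (log2 -1.40 and -2.71). Stx1a, a syntaxin of the fusion complex, stood at 6528 ± 618 in Emx and 784 ± 93.3 in Gad2 (8.33-fold higher). Unc13b, a vesicle priming factor, was 3.86-fold higher. The fast calcium sensor Syt2 stood at 312 ± 46.2 in Emx and 4418 ± 769 in Gad2 (14.1-fold lower), the vesicle GTPase Rab3b at 1477 ± 222 in Emx and 14949.7 ± 1440.4 in Gad2 (10.2-fold lower), and the vesicle SNARE Vamp1 at 1310.5 ± 255 in Emx and 9706 ± 1465 in Gad2 (7.45-fold lower).

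Of 34 potassium channel genes, 14 were called lower in Emx and 7 higher (median log2 0.01), against 10.3% and 15.1% of all genes. Kcnc2, a Kv3 subunit of fast-spiking cells, spanned 864 to 1183 (median 1018) in Emx libraries and 19502 to 23700 (median 21479) in Gad2 libraries (21.3-fold lower, SE 0.0476 on the log2 scale). Kcnip1, an auxiliary subunit of Kv4 channels, stood at 135 ± 24.8 in Emx and 3973 ± 471 in Gad2 (29.6-fold lower), and Kcns3, a modulatory subunit, at 51.6 ± 12.1 in Emx and 1032 ± 102 in Gad2 (20.1-fold lower). The Kv1 subunits Kcna1, Kcna2, Kcna3, Kcna5 and Kcna6 were also called lower (log2 -1.12, -1.29, -2.62, -1.17 and -1.31). Higher in Emx were Kcnv1, an electrically silent subunit, at 2941 ± 630.3 in Emx and 271 ± 71.5 in Gad2, Kcnh4, of the ether-a-go-go family, at 226 ± 45.7 in Emx and a median of 22.4 in Gad2, and Kcnip3, at 10442 ± 3784 in Emx and 1041 ± 224 in Gad2. The related auxiliary subunits Kcnip1 and Kcnip3 thus lay on opposite sides.

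Sodium, calcium and HCN channel genes were called higher in Emx for 4 of 27 genes and lower for 6 (median log2 -0.12), against 15.1% and 10.3% of all genes, so the share called higher was near that of all genes. Hcn2, Hcn3 and Hcn4, channels of the hyperpolarization-activated current, were among those lower (log2 -1.18, -2.16 and -1.39), with Hcn3 at 130 ± 37.5 in Emx and 564 ± 66.1 in Gad2. The calcium channel subunits Cacna2d1 and Cacna2d2 lay on opposite sides, with 4209 ± 519 in Emx and 1342 ± 143 in Gad2 for Cacna2d1 (3.13-fold higher) and 292 ± 50.2 in Emx and 4596 ± 601 in Gad2 for Cacna2d2 (15.8-fold lower). Cacna1e, the pore of R-type channels, and Cacnb1 were 2.73-fold higher and 2.68-fold higher. Scn1a, a sodium channel of interneurons, was called lower (log2 -2.01), while the log2 difference of Scn2a1 was 0.68 and short of a call.

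Neuropeptides were called lower in Emx for 12 of 18 genes and higher for 5 (median log2 -3.97). The peptides higher in Emx were led by Grp, the precursor of gastrin-releasing peptide, at 419 ± 108 in Emx and 19.9 ± 9.61 in Gad2 (21.9-fold higher), Adcyap1, that of PACAP, at 772 ± 315 in Emx and 49.6 ± 19.0 in Gad2 (15.2-fold higher), and Nmb, that of neuromedin B, at 66.5 ± 28.4 in Emx and 9.81 ± 6.63 in Gad2 (6.95-fold higher). Cck and Trh were the remaining pair (log2 1.42 and 2.75). Sst, Npy and Pnoc led those lower in Emx. Of 50 receptors for peptides, monoamines, acetylcholine and cannabinoids, 11 were called higher and 18 lower (median -0.59), against 15.1% and 10.3% of all genes. Several receptors lay opposite to their peptide. Crhr1, the receptor of corticotropin-releasing hormone, stood at 344 ± 57.5 in Emx and 28.1 ± 5.52 in Gad2 (11.9-fold higher), whereas the peptide gene Crh had a log2 difference of -3.56. Vipr1, a receptor of vasoactive intestinal peptide, stood at 331 ± 90.8 in Emx and 47.8 ± 14.7 in Gad2 (6.94-fold higher), with Vip at -6.58. In contrast Tacr1, the receptor of substance P, stood at 9.88 ± 9.71 in Emx and 306 ± 41.4 in Gad2 (40.5-fold lower), on the same side as Tac1. Oxtr, the oxytocin receptor, spanned 66.0 to 152 (median 82.5) in Emx libraries and 1132 to 1430 (median 1235) in Gad2 libraries, and the serotonin receptor Htr5b was 9.31-fold higher at 66.9 ± 26.8 in Emx and 6.90 ± 4.37 in Gad2.

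ErbB receptors divided by paralogue. Erbb4, the neuregulin receptor of interneurons, spanned 95.7 to 259 (median 157) in Emx libraries and 9883 to 14079 (median 11193) in Gad2 libraries (76.4-fold lower in Emx), and Egfr stood at 242 ± 26.4 in Emx and 1039.5 ± 126 in Gad2 (4.28-fold lower). Erbb2 and Erbb3, known from oligodendrocytes, stood at 34.0 ± 13.7 in Emx and 1.86 ± 2.21 in Gad2 and at 46.7 ± 18.1 in Emx and 3.04 ± 2.31 in Gad2 (log2 3.90 and 3.66), and the summed oligodendrocyte markers had a median of 77577 in Emx against 6194 in Gad2. The neuregulin genes Nrg1, Nrg2 and Nrg3 were not called (log2 0.15, -0.94 and 0.06).

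Calcium-binding proteins were called higher in Emx for 4 of 14 genes and lower for 3 (median log2 0.29), against 15.1% and 10.3% of all genes. Besides Pvalb, Calb2, calretinin, was lower at 33.9 ± 20.9 in Emx and 1304 ± 174 in Gad2, and Necab2 at 540.1 ± 117 in Emx and 1133 ± 120.4 in Gad2. The neuronal calcium sensors Hpcal4 and Hpca stood at 41214 ± 5248 in Emx and 11206 ± 908 in Gad2 and at 21916 ± 4613 in Emx and 6155 ± 1269.8 in Gad2 (3.66-fold higher and 3.56-fold higher), and Necab3 was 3.56-fold higher. Calb1, calbindin, was not called (log2 -0.61). Perineuronal net components were called higher for 4 of 12 genes and lower for 5 (median -0.32). The core proteins divided, with Acan, aggrecan, at 13.5 ± 14.1 in Emx and 122 ± 36.1 in Gad2 (12.2-fold lower) and Ncan, neurocan, at 15766 ± 1846 in Emx and 4327 ± 282 in Gad2 (3.63-fold higher). Hapln1, a link protein that fixes proteoglycans to hyaluronan, stood at 575 ± 63.8 in Emx and 4033 ± 262 in Gad2 (7.04-fold lower), while Hapln2, known from nodes of myelinated axons, stood at 70.8 ± 17.8 in Emx and 10.8 ± 4.01 in Gad2 (6.31-fold higher). Has2, a hyaluronan synthase, was 2.98-fold lower, and Ptprz1, a receptor phosphatase of glia, 3.48-fold higher. Of the neurofilament subunits, Nefm and Nefl were 3.11-fold higher and 2.48-fold higher in Emx, and Nefh was 5.82-fold lower at 577 ± 115 in Emx and 3349 ± 539.7 in Gad2.

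Genes of wiring and adhesion were called in either direction. Of 38 axon guidance genes, 9 were called higher in Emx and 7 lower (median log2 0.23), against 15.1% and 10.3% of all genes. Plxnd1, a plexin, spanned 548 to 1208 (median 805) in Emx libraries and 58.4 to 116 (median 91.8) in Gad2 libraries (9.17-fold higher), Ntng2, netrin-G2, at 682 ± 205 in Emx and 75.5 ± 21.5 in Gad2 (8.90-fold higher), and Ephb1, an ephrin receptor, at 891 ± 76.5 in Emx and 108 ± 24.2 in Gad2 (8.32-fold higher). Lower in Emx were the semaphorin Sema3c, at 104 ± 21.0 in Emx and 1675 ± 129.8 in Gad2 (16.2-fold lower), Ntn4, netrin 4, at 84.1 ± 27.9 in Emx and 489 ± 82.8 in Gad2 (6.00-fold lower), and Sema5a, at 1012 ± 304 in Emx and 4117 ± 553 in Gad2 (4.17-fold lower). Of 25 cadherins, 3 were called higher and 8 lower (median -0.32). Pcdh18, a protocadherin, stood at 35.3 ± 14.9 in Emx and 929 ± 108 in Gad2 (27.3-fold lower), and Cdh7 and Cdh9, classical cadherins of the second type, were 7.78-fold lower and 5.70-fold lower. Cdh6 led the other direction at 351 ± 73.3 in Emx and 90.5 ± 30.7 in Gad2 (3.95-fold higher), with Cdh22 and Cdh11 2.27-fold higher and 2.05-fold higher.

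Igf1, insulin-like growth factor 1, which the study's title places in VIP neurons, stood at 45.7 ± 20.9 in Emx and 3344 ± 585 in Gad2, and every Emx library lay below every Gad2 library (log2 -6.29, SE 0.135, adjusted p = 3.42e-23). The Emx mean was 1.37% of the Gad2 mean. The difference held in every condition, between -6.83 in dark housing and -5.89 in standard housing. Microglia, which also make this factor, had median summed markers of 681 in Emx and 4470 in Gad2, and their part in the Igf1 level was not tested. Of the 13 genes of IGF and insulin signalling 4 were called higher in Emx and 3 lower (median -0.17), against 15.1% and 10.3% of all genes. The receptor gene Igf1r was not called (log2 0.40), and the adaptor Irs1 stood at 988 ± 193 in Emx and 1995 ± 338 in Gad2 (2.03-fold lower). Among binding proteins, which sequester the factor outside cells, several were higher in Emx, with Igfbp6 at 1058 ± 389 in Emx and 70.0 ± 26.8 in Gad2 (log2 3.90), Igfbp2 at 327 ± 80.0 in Emx and 59.6 ± 13.3 in Gad2 (5.39-fold higher) and Igfbp5 at 7605 ± 1975 in Emx and 2509 ± 589.7 in Gad2 (3.00-fold higher). Igfbp3 was lower, at 220.4 ± 48.5 in Emx and 440.4 ± 70.5 in Gad2 (2.02-fold lower), close to the size limit.

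Ribosomal, oxidative phosphorylation and heat shock genes had few calls. None of 77 cytosolic ribosomal protein genes was called (median log2 0.20), and the 2 called lower among 78 oxidative phosphorylation subunits were tissue-restricted isoforms, Cox6a2 and Cox8b, with Cox8b at 1.19 ± 1.25 in Emx and 44.2 ± 22.8 in Gad2 (median of the list -0.36). Cox6b2, another isoform, was called higher at 27.6 ± 9.76 in Emx and 14.2 ± 8.13 in Gad2. Of 17 heat shock and unfolded protein genes, Dnajb5, a co-chaperone, was called higher at 4339 ± 1768 in Emx and 1179 ± 242 in Gad2 (median of the list -0.10). Cholesterol synthesis genes were called higher for 5 of 20 genes and lower for none (median 0.75), among them Mvd (2.71-fold higher), Msmo1 (2.64-fold higher) and Idi1 (2.52-fold higher), enzymes of the mevalonate and sterol steps. Circadian clock genes were called higher for 8 of 17 genes and lower for none (median 0.83), where 15.1% of all genes were called higher and 10.3% lower. Bhlhe40, a repressor that activity also induces, spanned 5564 to 13910 (median 8365) in Emx libraries and 943 to 1830.4 (median 1351) in Gad2 libraries, Per3 stood at 976 ± 109 in Emx and 261 ± 34.8 in Gad2, and Npas2, a partner of Arntl, at 1970.2 ± 401 in Emx and 600.5 ± 104 in Gad2. Glial markers were higher in the same libraries, and their part in the sterol and clock genes was not tested.

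**Figure D3:**
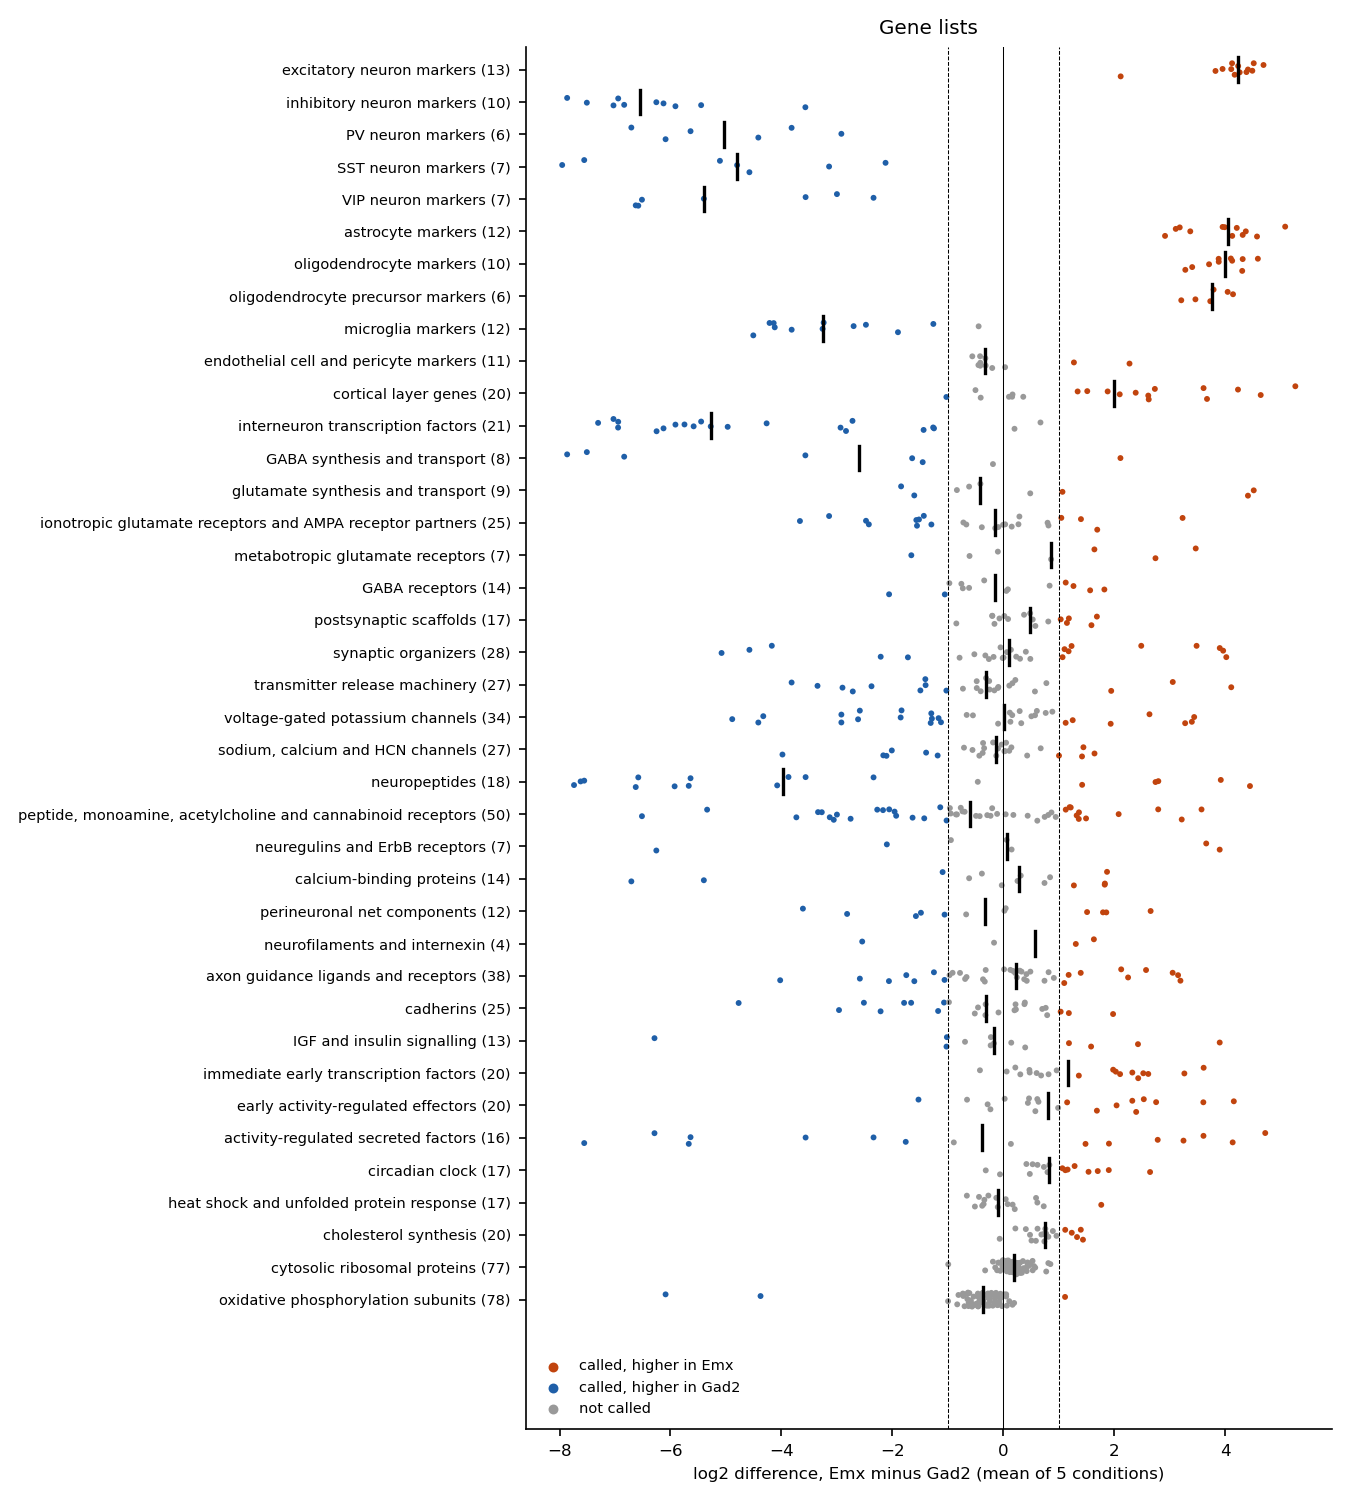
Log2 difference of Emx minus Gad2 (mean of 5 conditions) for each tested member of 39 gene lists, with the number of members in brackets and a vertical bar at each list's median. Excitatory, astrocyte and oligodendrocyte lineage markers lie to the right (medians 3.76 to 4.24), inhibitory markers and interneuron factors to the left, and receptor, channel and adhesion lists on both sides of 0.

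Genes induced by neuronal activity were set between the lines within each condition. Of 20 immediate early transcription factors, 10 were called higher in Emx and none lower over the 5 conditions (median log2 1.16, against -0.01 over all genes). The shares called among all genes were 15.1% higher and 10.3% lower. Egr3, a zinc finger factor, was 12.3-fold higher, Egr2 9.63-fold higher and Nr4a2, an orphan nuclear receptor, 6.13-fold higher. In dark housing Egr3 was at 7499, 6093 and 5415 in the Emx libraries, against 460.2, 599.9 and 574 in the Gad2 libraries. After 1 h of light it was at 32178, 34916 and 27348 in Emx, against 3315, 2901 and 2426 in Gad2. The gap was already there in the dark, with log2 differences of 3.53 in the dark, 3.45 at 1 h, 3.76 at 3 h, 3.60 at 7.5 h and 3.73 in standard housing. Npas4, a factor restricted to depolarized neurons, and Egr1 were called higher as well (log2 2.11 and 2.53). Fos, a subunit of AP-1, was not (log2 0.47), with 3634, 4563 and 4988 at 1 h in Emx and 2959.7, 3957 and 3742 in Gad2.

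Within single conditions 14% to 14.8% of all genes were called higher in Emx and 9.38% to 10.7% lower. Of the 20 immediate early factors, 10 were called higher in the dark, 12 at 1 h and 11 at 3 h. At 7.5 h 9 of these factors were called higher and 1 lower, and in standard housing 10 were called higher. The median line difference was 1.59 in the dark, 1.38 at 1 h, 1.55 at 3 h, 0.98 at 7.5 h and 1.22 in standard housing. Early effectors, which include feedback phosphatases and synaptic genes, were called higher in Emx for 9 of 20 genes and lower for 1 (median 0.81). Over the mean of the 5 conditions 15.1% of all genes were called higher and 10.3% lower. Cyr61, a matricellular protein, was 17.9-fold higher, Ptgs2, an inducible prostaglandin synthase, 12.2-fold higher, and Arc, which drives AMPA receptor endocytosis, 6.76-fold higher. Arc spanned 921 to 20993 (median 8690.5) in Emx libraries and 177 to 4068 (median 1232) in Gad2 libraries, and the ranges overlapped. Spry4, a feedback inhibitor of receptor tyrosine kinases, was the effector lower in Emx, at 624 ± 269.6 in Emx and 1740.4 ± 591 in Gad2. The median difference of effectors was 0.39 in the dark, 1.25 at 1 h, 0.99 at 3 h, 1.19 at 7.5 h and 0.77 in standard housing. Secreted factors fell into opposed groups, with 7 of 16 called higher and 7 lower (median -0.38), against the same 15.1% and 10.3%. Nrn1, neuritin, stood at 12579.7 ± 5121 in Emx and 455 ± 117 in Gad2 (26.5-fold higher), Bdnf, the neurotrophin, at 2179.7 ± 1283 in Emx and 108 ± 45.9 in Gad2 (17.6-fold higher), and Nptx1, a pentraxin that clusters AMPA receptors, at 12387 ± 1631 in Emx and 1016 ± 163 in Gad2 (12.2-fold higher). Sst, Igf1 and Pthlh, parathyroid hormone-like peptide, led those lower in Emx, with Pthlh at 15.7 ± 6.23 in Emx and 810.3 ± 166 in Gad2. Bdnf was at 4775, 2516 and 3345 in Emx at 7.5 h, against 544, 419 and 459 in the dark, and at 186, 152 and 166 in Gad2 at 7.5 h, against 52.7, 41.5 and 54.7 in the dark.

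**Figure D4:**
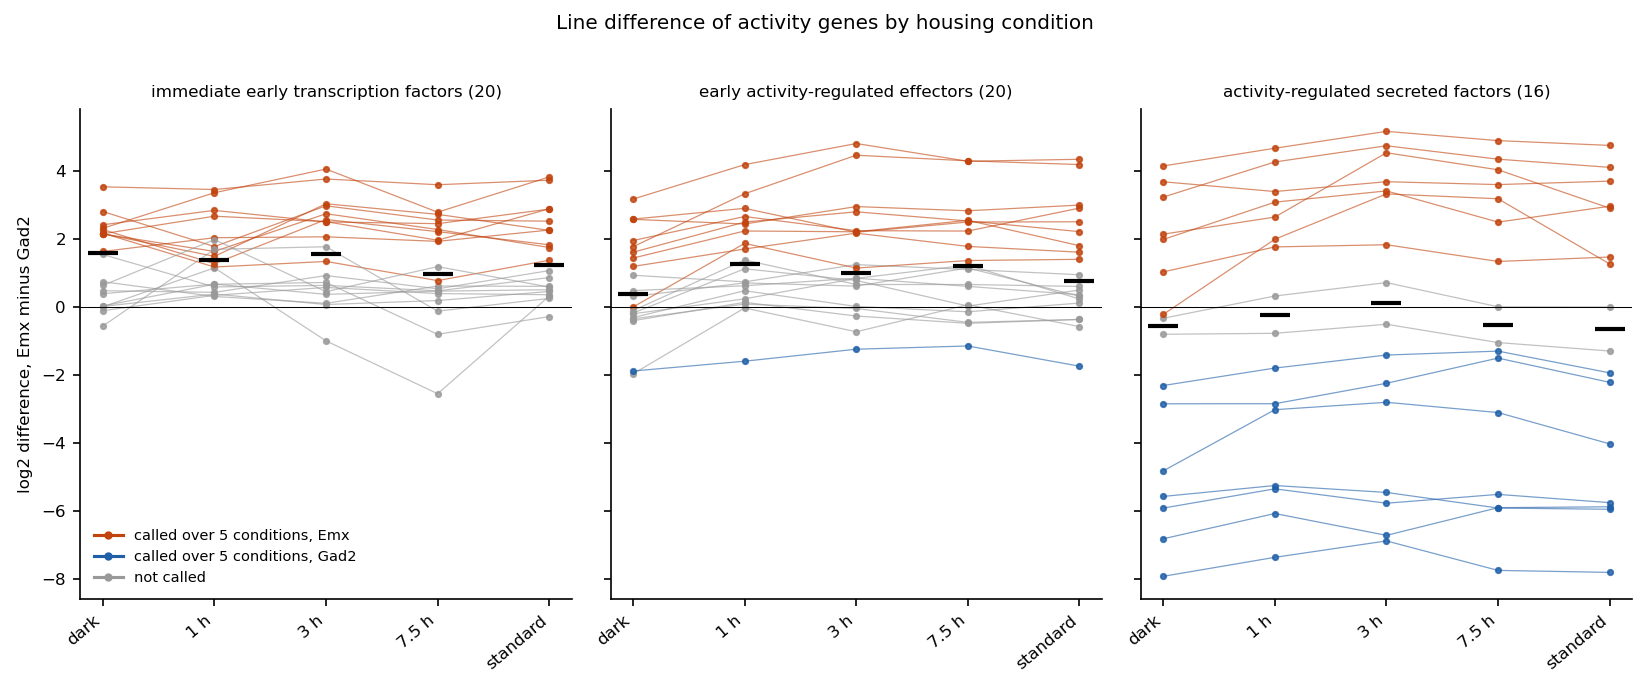
Log2 difference of Emx minus Gad2 within each housing condition for members of 3 lists of activity genes; each line joins the values of 1 gene, and black bars are list medians. Immediate early factors lie mostly above 0 in every condition, and secreted factors split into genes higher in Emx and genes higher in Gad2.

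Whether the gap between lines changed with light was tested as the difference of the line difference from that in dark housing. In the fit without the replicate number, 2 genes passed an adjusted p under 0.05 at 1 h (0.014%), 7 at 3 h (0.0492%) and 19 at 7.5 h (0.133%). The joint test over the 3 light times called 21 (0.147%). Both used limma with the Benjamini-Hochberg adjustment, and neither took the pairing of libraries by number into account. With the replicate number as a block in the fit the counts were 26 (0.183%), 179 (1.26%), 400 (2.81%) and 494 (3.47%). All calls without the block were toward a larger Emx over Gad2 ratio, while with it 23 genes at 1 h (0.162%), 137 at 3 h (0.962%) and 262 at 7.5 h (1.84%) were, against 3 (0.0211%), 42 (0.295%) and 138 (0.969%) toward a smaller one. The contrasts share the dark libraries, so their gene sets are not independent of each other. At 7.5 h the 19 genes had log2 changes from the dark of 0.81 to 3.74 in Emx (median 1.62) and of -0.27 to 0.61 in Gad2 (median 0.12). These genes were chosen by the difference between the 2 changes, so a gap between the medians follows in part from the choice. Leaving out 1 library moved the 7.5 h count to between 7 (without the first Emx library of 7.5 h) and 21, and the 1 h and 3 h counts to 0 and 2 without the second Emx library of dark housing.

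Of the 23 genes called at any light time without the block, 19 were lower in Emx in the dark. For 11 of those the dark difference was itself called, against 9.38% of all genes. In the dark 7010 of all 14240 genes were higher in Emx. The dark difference is the term subtracted in the test, so a low one favours a call. These counts thus follow in part from the choice of genes. At 7.5 h 8 of the 23 were lower, 4 of them called, and 6 were called higher. The shares called among all genes were 10.7% lower and 14.5% higher. Rnd3, an atypical small GTPase that lowers actomyosin contraction, had the smallest joint p (adjusted p = 1.04e-04). In Emx it was at 349, 355 and 483 in the dark, 870.4, 969 and 1162 at 1 h, 1406, 1547 and 1724 at 3 h and 2071, 1443 and 1451 at 7.5 h. In Gad2 it was at 1264, 1227 and 1132 in the dark, 1216, 1182 and 1159.7 at 1 h, 1102, 1349 and 1025 at 3 h and 1386, 1326 and 1392 at 7.5 h. Emx lay below Gad2 in the dark without overlap and above it at 3 h and 7.5 h. The line difference itself was called in the dark (log2 -1.62). It was not called at 3 h (log2 0.43) or at 7.5 h (log2 0.25, adjusted p = 0.216, limma). Differences of the line difference were 1.37 at 1 h (SE 0.226, adjusted p = 0.0377), 2.05 at 3 h (adjusted p = 3.68e-05) and 1.88 at 7.5 h.

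The levels of Cbln2, a secreted organizer that binds neurexins, crossed as well. Its line difference was called at 7.5 h (log2 1.25) but not in the dark (log2 -0.38, adjusted p = 0.0526, limma). Cbln2 was at 2119, 1749 and 2116 in Emx at 7.5 h, against 549, 609.9 and 738 in the dark. The Gad2 libraries were at 871, 804 and 835 at 7.5 h, against 816, 854 and 783 in the dark (log2 1.63, SE 0.220, adjusted p = 4.92e-04). Zdbf2, an imprinted gene, was at 3655, 4306 and 3601 in Emx at 3 h, against 1170, 1139.8 and 905 in the dark. For Gad2 the levels were 1919, 1309 and 1535 at 3 h, against 1394, 1018 and 1216 in the dark (log2 1.46, SE 0.255, adjusted p = 0.0219). Tiparp, an early response member of the poly-ADP-ribose polymerase family, averaged 259.6 ± 46.2 in Emx and 279 ± 28.1 in Gad2 in the dark. It reached 1761, 1808 and 2105 in Emx at 1 h, against 760.2, 676 and 739.7 in Gad2 (log2 1.49, SE 0.257, adjusted p = 0.0377, limma). Sgsm1, a regulator of small GTPases, averaged 3293 ± 785 in Emx at 7.5 h against 1599 ± 243 in Gad2, and 900.4 ± 115 against 1401 ± 77.2 in the dark (n = 3 each). Its fitted line difference over the mean of the 5 conditions was 0.00 on the log2 scale, with Emx below Gad2 in the dark and above it at 7.5 h.

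Both cyclooxygenases were among the calls. Ptgs2, the inducible enzyme, was at 1882, 2446 and 2849 in Emx at 3 h, against 288, 193 and 238 in the dark. In Gad2 it was at 180.4, 90.9 and 72.3 at 3 h, against 68.8, 76.3 and 61.8 in the dark (log2 2.70, SE 0.470, adjusted p = 0.0219). It was the single gene of the 23 that was already called higher in Emx in the dark. Ptgs1, the constitutive enzyme, was at 424, 262 and 257 in Emx at 7.5 h, against 102, 87.2 and 93.2 in the dark. The Gad2 libraries were at 1027, 942 and 1024 at 7.5 h, against 1035, 1022 and 990.2 in the dark (log2 1.72, SE 0.213, adjusted p = 1.59e-04). Emx thus lay below Gad2 for Ptgs1 both in the dark and at 7.5 h, with a narrower gap at 7.5 h.

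Of 18 neuropeptide genes, Penk alone was called at 7.5 h (4 genes with the block), against 0.133% of all genes (2.81% with the block). Line differences lay above those in the dark for 11 of 18 (median shift 0.22), against 6800 of all 14240 genes. Penk, the enkephalin precursor and a member of the VIP marker list, was at 1010.2, 902 and 1017 in Emx at 7.5 h, against 297, 372 and 350.4 in the dark. For Gad2 the levels were 2565, 2562 and 3259 at 7.5 h, against 2308, 2367 and 2701 in the dark (log2 1.35, SE 0.279, adjusted p = 0.0478). Scg2, secretogranin II, a granin of dense-core vesicles, was at 10585, 7766 and 7283 in Emx at 7.5 h, against 2851, 2822 and 2548 in the dark. In Gad2 it was at 24535, 19082 and 19228 at 7.5 h, against 15026, 13424 and 12574 in the dark (log2 1.01, SE 0.203, adjusted p = 0.0334). Sphk1, a sphingosine kinase, was at 71.2, 103 and 73.3 in Emx at 7.5 h, against 6.76, 5.86 and 3.42 in the dark. The Gad2 libraries were at 49.6, 55.0 and 76.6 at 7.5 h, against 48.1, 50.5 and 66.3 in the dark (log2 3.61, SE 0.674, adjusted p = 0.0203). For Sphk1 the Emx libraries lay below the Gad2 libraries in the dark and overlapped them at 7.5 h. Rxfp3, the relaxin-3 receptor, was at 18.1, 14.7 and 16.7 in Emx at 7.5 h, against 0.966, 0.651 and 0 in the dark, that is at 2, 1 and 0 reads. Its fitted difference (log2 3.80, SE 0.681, adjusted p = 0.0154) depends on the value added before the log, and the call was lost with 0.1 or 10 in place of 1. For Gad2 the levels were 329, 228 and 357 at 7.5 h, against 391, 320.1 and 350.4 in the dark.

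For the other genes called at 7.5 h the levels at 7.5 h are set beside those in the dark. Layn, a hyaluronan receptor, averaged 212 ± 119.8 in Emx and 224 ± 59.4 in Gad2, against 22.3 ± 7.29 and 192 ± 40.9 in the dark (log2 2.88). Wisp1, a matricellular protein of the CCN family, averaged 314 ± 57.9 in Emx and 202 ± 22.4 in Gad2, against 56.4 ± 28.0 and 156 ± 15.9 in the dark (log2 2.19). Vwa1, a matrix protein with a von Willebrand factor A domain, averaged 807 ± 65.9 in Emx and 154 ± 16.7 in Gad2, against 319 ± 35.3 and 189 ± 42.7 in the dark (log2 1.61). Sorcs3, a sorting receptor with a Vps10 domain, averaged 1671 ± 450 in Emx and 837 ± 147 in Gad2, against 550.4 ± 134 and 690.2 ± 91.7 in the dark. Syt12, an atypical synaptotagmin, averaged 1388 ± 129 in Emx and 554 ± 68.0 in Gad2, against 661 ± 49.2 and 577 ± 72.8 in the dark. Etv3, an ETS domain repressor, Fam43a, Lingo3, a leucine-rich repeat protein, and Ptchd2, a protein of the patched family, had differences of 1.18, 1.44, 1.34 and 1.38. At 3 h the remaining calls were Arhgef3, an exchange factor for small GTPases (log2 1.03, and 0.98 at 7.5 h), Golm1, a Golgi membrane protein (log2 1.52), and Tmem178 (log2 0.94).

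**Figure D5:**
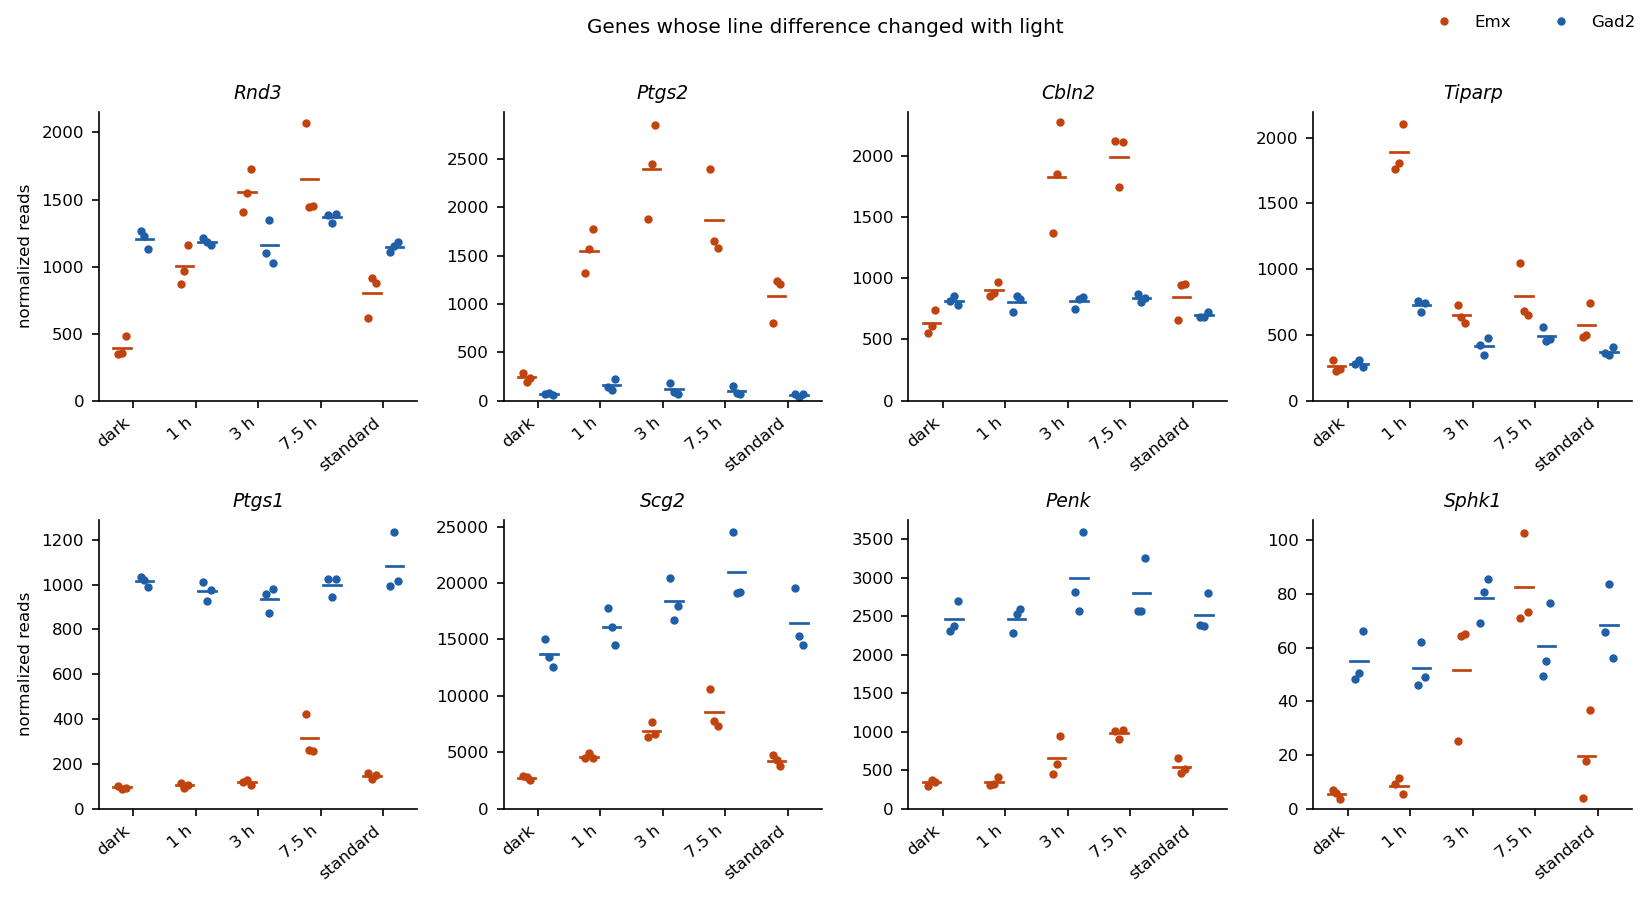
Normalized reads of 8 genes in each library by housing condition (linear axes from 0), with Emx left of Gad2 and bars at group means. The Emx levels of Rnd3 and Cbln2 cross those of Gad2 with light, those of Ptgs2 and Tiparp draw away upward, and those of Ptgs1, Scg2 and Penk come closer to Gad2 while staying below it. The line difference was not called at 3 h or 7.5 h for Rnd3, nor in the dark for Cbln2.

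Measures of other cells and of depth also differed between light and dark libraries. The summed inhibitory markers of Emx libraries were 4669 to 6281 at 7.5 h against 4112 to 5267 in the dark, and those of Gad2 libraries 162957 to 177257 against 152924 to 166958. VIP neuron markers had a median log2 change from the dark of 1.33 in Emx at 7.5 h and of 0.03 in Gad2. Penk was called among the 7 marker genes, and 4 were with the block (0.133% and 2.81% of all genes). Among these, Vip was at 129.8, 192 and 521 in Emx libraries of 7.5 h, against 14.5, 20.8 and 28.2 in the dark, and at 5953, 8415 and 11542 in Gad2 libraries of 7.5 h, against 4818, 6476 and 7790.1 in the dark. Microglia markers had median differences of the line difference of 1.11 at 1 h and 1.24 at 3 h, with median changes of 0.34 and -0.04 in Emx and of -0.74 and -1.22 in Gad2, and none of 12 genes called. The part of these shifts and of the lower depth at 7.5 h in the 23 genes was not tested.

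Effectors and secreted factors lay mostly on the same side and immediate early factors less so, with few single calls without the block. Among all 14240 genes, 7375 at 1 h, 7099 at 3 h and 6800 at 7.5 h had a line difference above that in the dark. The shares of all genes called at these times were 0.014%, 0.0492% and 0.133%, and 0.183%, 1.26% and 2.81% with the block. For effectors, 18 of 20 genes at 1 h, 19 at 3 h and 17 at 7.5 h had a line difference above that in the dark (median shift 0.62, 0.71 and 0.66 on the log2 scale, against 0.01 at 1 h and -0.01 at 7.5 h over all genes), with 1 gene called at each time and 4, 3 and 6 with the block. Among secreted factors 15 of 16, 16 and 13 did (median 0.56, 0.96 and 0.63), with 0, 0 and 2 called, and 0, 7 and 6 with the block. For immediate early factors 11 of 20, 14 and 12 lay above the dark difference (median 0.32, 0.26 and 0.06), with none called and, with the block, 1 at 3 h.

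Promoters of the 23 genes were searched for motifs of activity-dependent factors and for a homeodomain core. The search covered the 300 bases around each gene's start (250 before and 50 after, RefSeq, GRCm38.p6, both strands). By symbol 17 of 23 matched. The cyclic AMP response element TGACGTCA was in 2 of 17 (11.8%), Zdbf2 and Scg2, and in 2.03% of the promoters of 27025 genes. The AP-1 word TGACTCA was in Sgsm1 and Sphk1 (11.8%, against 5.95% of all), and the homeodomain core TAATTA in Ptgs1 (5.88%, against 6.12%). None of the words contains another. The 250 bases before the start of Zdbf2 (chr1:63273019-63273268, plus strand) and Scg2 (chr1:79440027-79440276, minus strand) are shown because these 2 of the 17 held the response element. Capitals mark the element, which begins 59 and 68 bases before the start.
Zdbf2: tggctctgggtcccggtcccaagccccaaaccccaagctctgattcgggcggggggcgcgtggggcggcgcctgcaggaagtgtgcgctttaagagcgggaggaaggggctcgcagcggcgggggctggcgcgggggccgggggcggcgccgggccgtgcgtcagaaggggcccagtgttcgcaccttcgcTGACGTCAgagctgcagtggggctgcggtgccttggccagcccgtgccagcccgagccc
Scg2: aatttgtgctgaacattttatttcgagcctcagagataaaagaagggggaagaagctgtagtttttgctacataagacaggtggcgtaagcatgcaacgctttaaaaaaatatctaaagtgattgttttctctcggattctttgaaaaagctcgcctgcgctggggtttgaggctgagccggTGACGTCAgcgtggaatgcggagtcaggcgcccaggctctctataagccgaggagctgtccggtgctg
A match describes the letters and not a bound site.

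Between standard and dark housing the line gap was compared in the same way. A single gene (0.00702%) passed, with 4 (0.0281%) under the block, 2 in each direction (0.014%), and 233 at an unadjusted p under 0.05. The gene was Zc3h7a, a zinc finger protein, which was listed at 0 in all Emx libraries except those of 7.5 h (423, 339 and 312) and in all Gad2 libraries except those of 7.5 h (312, 375 and 353) and standard housing (367, 309 and 412). Zeros across whole groups in both lines do not allow a fold change, and no call was left in standard housing once such genes were set aside. Depth tended to be lower in standard housing than in the dark, and its part in this count was not tested.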

How the data were processed

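Ribosome-bound RNA was immunopurified from pooled visual cortex, amplified by SPIA and sequenced as single 50-base reads on a HiSeq 2000, per the labels' protocols. The deposited signal is a value per gene and library; the submitters' processing notes name build mm9 and, in no order, BWA, Cuffdiff 2.2.1, Cuffnorm, TopHat2 2.0.13 and Bowtie2 2.1.0.0. The deposited file states no unit. In each of the 30 libraries 93.2 to 95.5% of values up to 20 reads were whole multiples, within 0.1, of a value for 1 read (0.422 to 2.24), so the authors' signal is treated as read counts divided by a factor, and depth was read from it. The rest were not whole, so no count test was run. Depth limits precision most for genes with few reads.

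Of 14284 rows 23 with date-like names were dropped. Genes with at least 1 normalized read in at least 3 libraries were tested, and 13 genes at 0 in a library of a line with a median of at least 50 were set aside, leaving 14240. Of the series' 75 samples, 73 had values; 2 sample columns of another line were empty. limma 3.58.1 with statmod 1.5.0 in R 4.3.3 fitted log2(value + 1) over the 10 groups of 3, with robust, trended moderation and Benjamini-Hochberg adjusted two-sided p (limma). A line difference was called at an adjusted p under 0.05 and a log2 difference of at least 1, and a change of it with light at an adjusted p under 0.05. Scripts were tested on simulated data. Sums and figures used Python 3.11.15, numpy 2.4.6, pandas 2.3.3 and matplotlib 3.10.9.

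Groups came from sample titles. Replicates are separate pools of mice. Libraries with 1 number deviated together across the lines in all 15 pairs (correlation of deviations 0.150 to 0.740, median 0.620, over 12030 genes), and each library correlated best with its own number, so the numbers were taken to pair the libraries. What they stand for is not given in the sources used here. A fit with the number as a block was therefore also made. Other alternatives were the value added before the log, no filter, quantile normalization, plain moderation, all lines in 1 fit, genes with a 0 kept and each library left out.

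The comparison, its gene lists and tests were chosen with earlier results of these data known. Named by rule were Slc17a7, Gad2, Gad1, Slc32a1, Emx1 and Igf1, the 8 largest called differences in each direction with a mean of at least 100 in the higher line, up to 3 called members of each list in each direction, and for changes with light the 5 largest in each direction and the 5 smallest joint p with a mean of at least 50. The remaining genes with light-dependent calls and the list members given by log2 difference alone were named after their values were seen. Some genes that the rule names are not reported here. Promoter sequences came from RefSeq (GRCm38.p6, not the build of the reads) and were matched by symbol.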

Additional observations from a re-analysis of the deposited data

Results flagged for a closer look

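For 23 genes the interaction test without the replicate block called a change of the line difference with light (limma, adjusted p under 0.05). Each is listed here with the log2 difference of Emx minus Gad2 after light less that in the dark. More genes were called with the block, and in both directions. After 1 h of light the values were 1.37 for Rnd3 and 1.49 for Tiparp. After 3 h they were 1.03 for Arhgef3, 1.53 for Cbln2, 1.52 for Golm1, 2.70 for Ptgs2, 2.05 for Rnd3, 0.94 for Tmem178 and 1.46 for Zdbf2.

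After 7.5 h the values were 0.98 for Arhgef3, 1.63 for Cbln2, 1.18 for Etv3, 1.44 for Fam43a, 2.88 for Layn, 1.34 for Lingo3, 1.35 for Penk, 1.38 for Ptchd2, 1.72 for Ptgs1 and 2.53 for Ptgs2. Rnd3 was at 1.88, Rxfp3 at 3.80, Scg2 at 1.01, Sgsm1 at 1.67, Sorcs3 at 1.33, Sphk1 at 3.61, Syt12 at 1.13, Vwa1 at 1.61 and Wisp1 at 2.19. The value of Rxfp3 rests on dark Emx libraries with 2, 1 and 0 reads. All 28 values were positive, and they share the dark libraries.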

How the results depend on the processing

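None of the 157 line differences that the naming rule chose changed direction under the alternatives run; other named differences were not followed. The count of 3624 genes was 3620 to 3651 with 1 library left out, 3625 with the replicate block (3623 shared), 3114 with 10 added before the log and 3660 after quantile normalization. Changes of the line difference with light depended on the fit. With the replicate block the counts were 26 at 1 h, 179 at 3 h, 400 at 7.5 h, 4 in standard housing and 494 in the joint test. With the 15 matched pairs as the replicate block they were 21, 88, 280, 3 and 301. No other count moved by over 1.5 times with the block.

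At 1 h the count of 2 was 5 with 10 added before the log, 5 after quantile normalization, 0 with plain moderation, 4 with all lines in 1 fit and 7 with genes holding a 0 kept. In standard housing the count of 1 was 2 with all lines in 1 fit. It was 0 with genes at 0 in a whole group set aside, an alternative chosen after seeing the data. The cause of these shifts was not tested.

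With 1 library left out, counts were 0 to 4 at 1 h (lowest without the second Emx dark library), 2 to 8 at 3 h (lowest without the same library), 7 to 21 at 7.5 h (lowest without the first Emx 7.5 h library), 1 to 2 in standard housing and 5 to 30 in the joint test (lowest without the second Gad2 7.5 h library, highest without the second Emx standard library). With 1 replicate number left out in both lines they were 0 to 0, 0 to 15, 0 to 11, 1 to 2 and 0 to 12, from 2 libraries per group. Of 157 genes that the naming rule chose in the line comparison, 7 lost their call with some library or replicate number left out (among them Irs1, Igfbp3, Cplx3, Cdh11, Cox6b2 and Glud1). Of those it chose for changes with light, 2 of 2 at 1 h, 5 of 5 at 3 h, 5 of 5 at 7.5 h and 5 of 5 in the joint test did so. Golm1 and Zdbf2 at 3 h and Layn and Wisp1 at 7.5 h also lost it with all lines in 1 fit. Rnd3 and Tiparp at 1 h lost it with plain moderation.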

Other observations

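Called line differences of opposite direction in different conditions were found for 2 genes. Txnip, an inhibitor of thioredoxin, had log2 differences of Emx minus Gad2 of 1.58 at 3 h, -1.36 at 7.5 h and 1.14 in standard housing. Col18a1, a collagen, had -2.36 at 1 h and 2.04 in standard housing, at means of 7.19 ± 4.46 in Emx and 9.45 ± 8.28 in Gad2 (SD, n = 15 each).

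Vip was lower in each Emx library of the dark than in each of standard housing, with 112, 238 and 429 in standard housing against 14.5, 20.8 and 28.2 in the dark.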
